A study of Mus musculus with 4 samples.

Results

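Genes for the subunits of the mitochondrial respiratory chain and of ATP synthase were examined in cultured mouse hair follicle cells, those of the dermal papilla (DPCs) and those of the dermal sheath (DSCs). The genes were chosen by symbol, as the families Nduf (complex I), Sdh (complex II), Uqcr (complex III), Cox4 to Cox8 with a letter from a to c (complex IV), Atp5 (complex V) and the protein-coding genes of the mitochondrial genome. These symbols matched 101 rows of the count table, of which 6 named as pseudogenes (-ps) were left out, and the remaining 95 of 51826 rows are the members. They comprise 82 nuclear genes, with 37 for complex I, 4 for complex II, 8 for complex III, 16 for complex IV and 17 for complex V, and 13 mitochondrial genes, with 7 for complex I, 1 for complex III, 3 for complex IV and 2 for complex V. The symbols do not define the subunits exactly. Cox4i1 was not taken in, Ndufa4 is now counted with complex IV, Cox7a2l is a supercomplex assembly factor, and Atp5s and Atp5sl encode a coupling factor and an assembly factor.

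Both cell types were grown from the whisker (vibrissa) follicles of C57BL/6J mice with an EGFP transgene, aged 5 to 6 weeks and given as WT in the labels, in a medium with fetal bovine serum. DPCs are the mesenchymal cells of the papilla in the hair bulb, and DSCs are those of the sheath around the follicle. Cells called low passage (DPCs or DSCs) were at passage 3, and cells called high passage were at passage 9. Each of the 4 groups was 1 library with no replicate, and the labels tie no library to a number of animals, so that no difference below has a replicate check. In the following, 4 values in a row are given with DPCs before DSCs and, in each, low passage before high.

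The respiratory chain passes electrons from NADH (complex I) and succinate (complex II) through ubiquinone to complex III, cytochrome c and complex IV, which reduces oxygen. Complexes I, III and IV pump protons out of the mitochondrial matrix, and complex V, the ATP synthase, uses the returning protons to make ATP. Complex II is encoded by nuclear genes alone, while each of the other complexes joins nuclear subunits with a few encoded in mitochondrial DNA, which is transcribed inside the organelle as long precursors that are cut into single mRNAs. The nuclear genome also carries fragments of mitochondrial DNA, and reads from a mitochondrial gene can be counted there.

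The libraries held 35340038, 34981284, 38780425 and 47604059 counts, and TMM scaling factors lay between 0.957 and 1.041. The members' IDs were all found in GENCODE M21 (GRCm38), and the positions of 68 of 95 were the same there. Among genes with few counts, those with exactly 4 counts (742 to 841 per library) outnumbered those with 3 (558 to 607), while even values made up 48.8% to 50.7% of all counts from 1 to 40. Since whether each mate adds a count of its own is not settled by this, counting intervals were also computed on halved counts. Markers matched the labels in part. The summed CPM (counts scaled to a common library size) of 5 dermal sheath markers was 9240, 2570, 7670 and 6180, and that of 6 mesenchymal markers 18500, 7220, 27000 and 22000. That of 6 dermal papilla markers was 272, 185, 460 and 411. Against the labels, the sheath sum was thus higher in DPCs at passage 3, and the papilla sum was higher in DSCs at both passages. At passage 9 the sheath sum was higher in DSCs. Ncam1 and Sox2 are in both lists. Among the papilla markers, Ncam1 was higher in DSCs, with 3642, 1673, 11755 and 15584 counts. Sox2 was higher in DPCs, with 1677, 1491, 269 and 178 counts. Alpl, the gene for alkaline phosphatase, had 8, 10, 23 and 6, and Lef1 had 508, 2, 101 and 55. All 3 adipocyte markers were at 0, as were Krt5 and Krt14 of 4 keratinocyte markers. Markers of other cell types were present. Summed CPM was 12.3, 4.68, 17.9 and 9.07 for 3 immune markers, and 2.86, 2.68, 7.97 and 1.93 for 3 Schwann markers. It was 0.761, 0.112, 1.79 and 0.198 for 2 endothelial and 0.462, 1.0, 0.871 and 1.03 for 4 melanocyte markers. Sox10 (Schwann, 28, 0, 116 and 0 counts) and Cdh5 (endothelial, 16, 0, 45 and 0) had no count at passage 9. The part of such cells in the differences between passages was not tested.

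The genes mt-Atp8 and mt-Atp6 share sequence with each other and with a nuclear copy. The end of mt-Atp8 and the start of mt-Atp6 are the same 43 bases, and a nuclear pseudogene on chromosome 1, Gm10925, equals mt-Atp6 over 678 bases with 0 mismatches. The following sequences, from the GENCODE M21 transcripts, show both. Capitals mark the 43 bases that lie in mt-Atp8 and mt-Atp6 and recur at the start of Gm10925.
mt-Atp8 and mt-Atp6, chrMT:7887-8009, plus strand: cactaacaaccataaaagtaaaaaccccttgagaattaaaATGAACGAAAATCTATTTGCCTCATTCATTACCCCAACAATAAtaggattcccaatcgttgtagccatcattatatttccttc
Gm10925, chr1:24614569-24614651, minus strand: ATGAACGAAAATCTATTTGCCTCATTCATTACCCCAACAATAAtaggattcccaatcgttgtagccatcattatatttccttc
A read inside these bases fits all 3 genes. Of the 13 mitochondrial members, 9 had at least 1 nuclear copy of at least 95% identity over at least 100 bases, 11 copies in all, and 6 shared under 10% of their 50-base windows with any other annotated transcript (mt-Nd1, mt-Nd2, mt-Nd5, mt-Nd6, mt-Cytb and mt-Atp8).

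The first comparison was the share of each library taken by the members. The 13 mitochondrial genes held 4.126% of the counts in low-passage DPCs (exact 95% binomial interval 4.120% to 4.133%) and 7.762% in high-passage DPCs (7.753% to 7.771%). In low-passage DSCs they held 4.763% (4.757% to 4.770%) and in high-passage DSCs 5.518% (5.511% to 5.524%). The 82 nuclear genes went the other way in DPCs, from 0.735% (0.732% to 0.738%) to 0.496% (0.493% to 0.498%), and held 0.559% (0.557% to 0.562%) and 0.533% (0.530% to 0.535%) in DSCs. Mitochondrial counts were thus 5.61 times the nuclear ones in low-passage DPCs, 15.66 times in high-passage DPCs, 8.52 times in low-passage DSCs and 10.36 times in high-passage DSCs. These intervals cover counting error only, and reads are not independent molecules. A share of the total RNA, here and below, does not tell fewer cells with a transcript from less of it per cell.

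**Figure D1:**
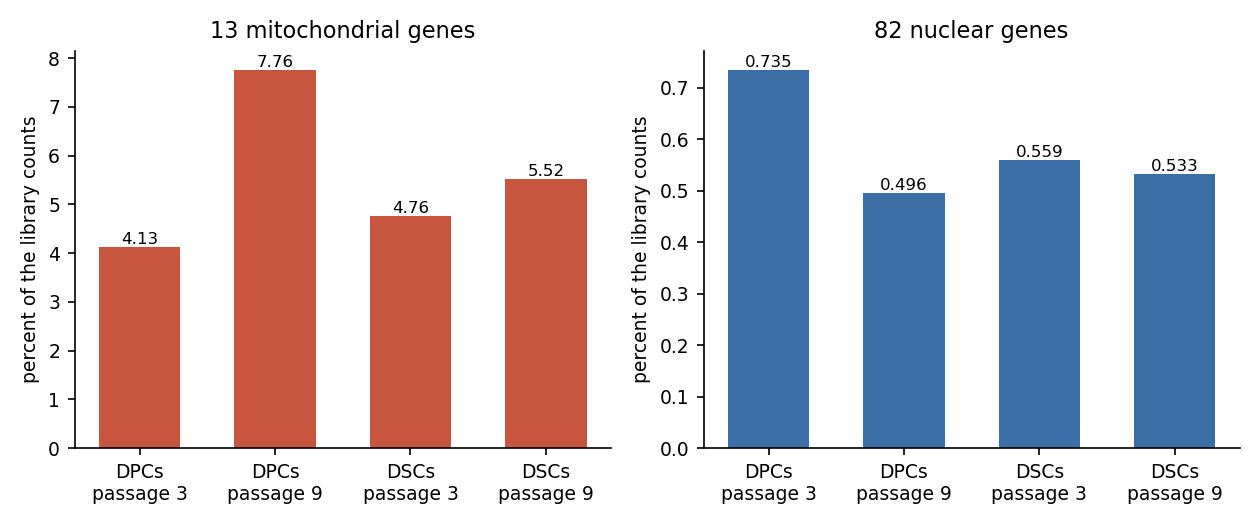
Share of the library counts, in percent, held by the 13 mitochondrial (left) and the 82 nuclear (right) respiratory chain genes, 1 bar per library, with no replicates. High-passage DPCs have the highest mitochondrial share, 7.76%, and the lowest nuclear share, 0.496%.

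Per length, the mitochondrial transcripts stood far above the nuclear ones in every library. mt-Co1, the catalytic subunit of complex IV, had an FPKM (fragments per kilobase, scaled to library size) of 7700, 12160, 8975 and 9300 and ranked 1 among all genes in each of the 4 libraries. mt-Cytb, the cytochrome b of complex III, ranked 3, 3, 4 and 5. The nuclear member with the highest FPKM in each library was Atp5b, the catalytic beta subunit of ATP synthase, at 383.8, 286.1, 320.6 and 291.5, which ranked between 152 and 187. Summed over all members, mitochondrial FPKM was 5.38, 15.44, 8.11 and 10.16 times the nuclear FPKM. Median FPKM of nuclear members was 52.5, 34.3, 42.2 and 40.3 for complex I and 126.3, 67.4, 92.6 and 86.6 for complex V. Complexes II to IV lay between these, except that complex II was lowest in high-passage DPCs (28.6) and DSCs (37.5).

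The second comparison was passage 9 over passage 3 within each cell type, on the log2 scale of TMM-scaled CPM with a prior count of 2. It covered the 16734 genes with a mean count of at least 10, among them 78 nuclear and all 13 mitochondrial members. In DPCs the nuclear genes were lower and the mitochondrial genes higher at passage 9. The median difference was -0.57 over nuclear members, with 72 of 78 lower, where 48.5% of all genes tested were lower. It was 0.87 over mitochondrial members, with 13 of 13 higher. The median over all genes tested was 0.03. Counting intervals excluded 0 for 76 of 78 nuclear and 13 of 13 mitochondrial members (77.6% of all genes), and for 73 and 13 on halved counts (69.1%).

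In DSCs the same comparison gave smaller differences. The nuclear median was -0.04, with 43 of 78 lower, where 49.7% of all genes tested were lower. The mitochondrial median was 0.23, again with 13 of 13 higher, and the median over all genes was 0.00. Intervals excluded 0 for 55 of 78 nuclear members, near the 66.7% of all genes, and 12 of 13 mitochondrial members. On halved counts 40 of 78 nuclear members were left, beside 55.9% of all genes. The difference was lower in DPCs than in DSCs for 72 of 78 nuclear members and for 0 of 13 mitochondrial members, beside 50.6% of all genes tested. Of the 78 nuclear members, 43 were lower at passage 9 in both cell types (34.4% of all genes), 6 were higher in both (36.0%) and 29 were lower in DPCs and higher in DSCs (14.1%). For 19 of these 29 both counting intervals excluded 0, a pattern of 5.81% of all genes. By deposited FPKM the sign was the opposite of that by counts for 2 of 78 nuclear members in DPCs and 10 of 78 in DSCs. With 1 library per group, a difference between the cell types could not be tested.

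Far fewer members passed a 2-fold threshold than shared a direction. Among nuclear members, in DPCs, 0 of 78 reached 2-fold upward and 11 reached it downward, where 16.1% and 15.0% of all genes did, so that the share lower was near the background. Among mitochondrial members, 6 of 13 were at least 2-fold higher in DPCs. In DSCs 1 nuclear member was at least 2-fold higher (Ndufa4l2) and 1 lower (Cox6a2), beside 8.55% and 6.21% of all genes, and 1 mitochondrial member was higher (mt-Atp6). In both cell types mt-Atp6 was at least 2-fold higher, as were 4.86% of all genes, and Cox6a2 at least 2-fold lower, as were 3.54%. At the 4-fold threshold of the study, the members past it were mt-Atp6 and Cox6a2 in DPCs and mt-Atp6 in DSCs, beside 9.94% and 3.82% of all genes in either direction. With the counts of its identical nuclear copy added, mt-Atp6 differed by 1.52 in DPCs and 0.95 in DSCs, which is under 4-fold in both and under 2-fold in DSCs.

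**Figure D2:**
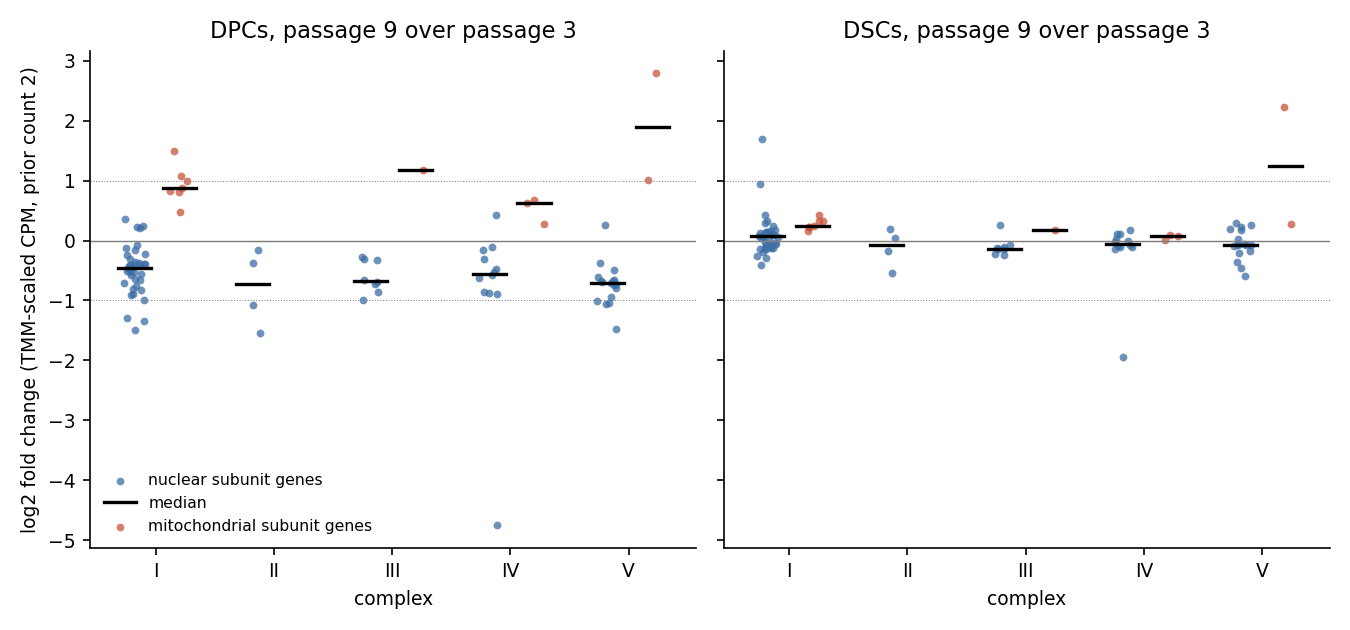
Log2 fold change of passage 9 over passage 3 for each tested member by complex, in DPCs (left) and DSCs (right), with nuclear genes in blue, mitochondrial genes in red, medians as black bars and 2-fold as dotted lines. In DPCs the nuclear medians lie between -0.73 and -0.45 and the mitochondrial medians between 0.62 and 1.90; the blue point at -4.75 is Cox6a2, with no count in high-passage DPCs.

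Each complex with both kinds of gene showed this order. In DPCs the median difference of complex I was -0.45 over 37 nuclear and 0.87 over 7 mitochondrial genes, and the lowest mitochondrial value (0.48, mt-Nd3) was above the highest nuclear one (0.36, Ndufa12). Complex III had -0.68 over 8 nuclear genes and 1.18 for mt-Cytb, with no overlap. Complex IV had -0.55 over 12 nuclear and 0.62 over 3 mitochondrial genes, and 1 nuclear gene lay above the lowest mitochondrial one, Cox6b2 with 14 and 19 counts. Complex V had -0.71 over 17 nuclear genes and 1.90 over 2 mitochondrial ones. Complex II, with no mitochondrial gene, had -0.73 over 4 genes. The mitochondrial medians exceeded the nuclear ones by 1.32, 1.85, 1.17 and 2.61 for complexes I, III, IV and V. For complex V the gap was 1.72 with mt-Atp8 alone.

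In DSCs these gaps were 0.17, 0.32, 0.13 and 1.32. The nuclear medians were 0.07, -0.07, -0.14, -0.05 and -0.07 for complexes I to V, and the mitochondrial ones were 0.24, 0.18, 0.08 and 1.25 for complexes I, III, IV and V. Nuclear and mitochondrial values overlapped in all 4 complexes here, with 8 of 37 nuclear complex I genes at or above the lowest mitochondrial value. With mt-Atp8 alone the gap of complex V was 0.34, and the count of mt-Atp6 is uncertain as described below.

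Among the mitochondrial genes of complex I, mt-Nd2 had the largest difference. Its counts were 85968, 237281, 104645 and 169112, which gave 1.5 in DPCs (95% counting interval 1.49 to 1.51) and 0.43 in DSCs (0.42 to 0.44). mt-Nd5 had 128466, 229078, 186473 and 251077 counts, with 0.87 and 0.16. mt-Nd1, mt-Nd4, mt-Nd4l and mt-Nd6 lay between 0.81 and 1.07 in DPCs and between 0.22 and 0.33 in DSCs. mt-Nd6, transcribed from the other strand, had 40630, 69692, 53977 and 76257 counts. It overlaps mt-Nd5 by 14 bases on the opposite strand. Since the use of strand in the counting is not given, its counts may include reads from the opposite strand. mt-Nd3 was lowest in DPCs, at 0.48, with 8817, 11982, 9929 and 14121 counts. In DPCs the genes of complex I thus ran from 0.48 to 1.5, although they lie on the same circular genome.

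mt-Cytb of complex III had 189524, 419032, 234797 and 320040 counts, a difference of 1.18 in DPCs (1.17 to 1.19) and 0.18 in DSCs (0.17 to 0.19). Its level was highest in high-passage DPCs by 2.27-fold over the low passage. The genes of complex IV had the smallest differences of the mitochondrial genes in DSCs. mt-Co1 had 476321, 737943, 607259 and 771499 counts (0.67 in DPCs and 0.08 in DSCs). mt-Co2 had 91306, 137193, 115794 and 148884 (0.62 and 0.10). mt-Co3 had 95473, 112761, 115471 and 139532 (0.28 and 0.01), and its DSC interval, -0.00 to 0.02, held 0.

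The genes of complex V differed from each other. mt-Atp8 had 41919, 82107, 48728 and 70605 counts, with 1.01 in DPCs and 0.27 in DSCs, close to the genes of complex I. mt-Atp6, which encodes subunit a of the proton channel and follows mt-Atp8 in the same mRNA, had 26099, 175543, 31204 and 175870, with 2.79 (2.77 to 2.80) and 2.23 (2.21 to 2.25). The count of mt-Atp6 was below that of mt-Atp8 in both passage 3 libraries and above it in both passage 9 libraries. Per length, mt-Atp6 was below mt-Atp8 in every library. Its FPKM was 958.0, 6566, 1047 and 4814, and that of mt-Atp8 was 5154, 10290, 5478 and 6473.

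**Figure D3:**
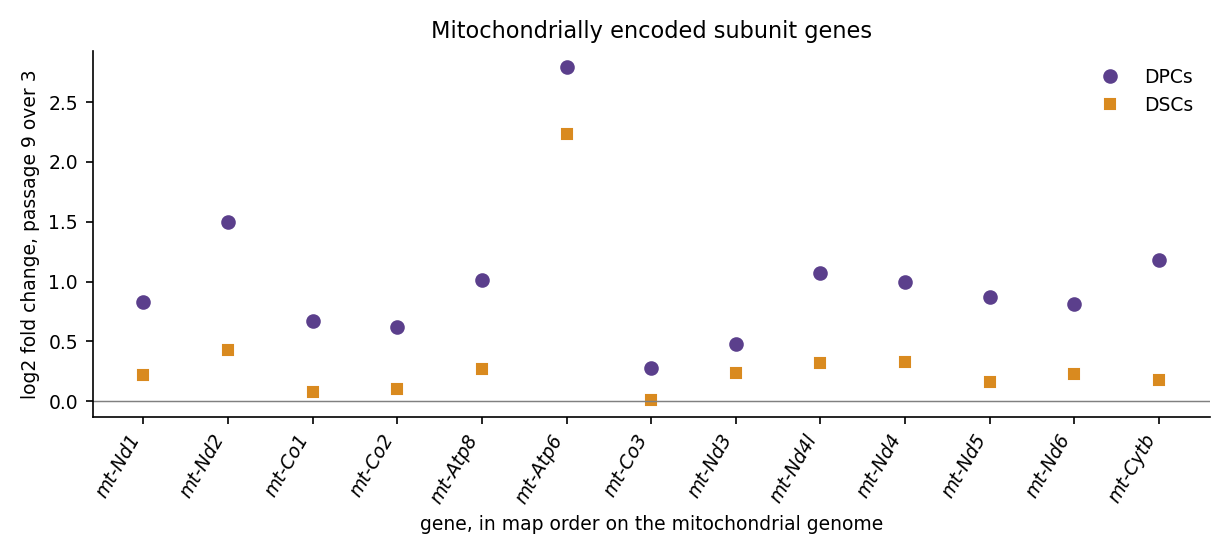
Log2 fold change of passage 9 over passage 3 for the 13 mitochondrially encoded genes, in their order on the mitochondrial genome, with circles for DPCs and squares for DSCs. All 26 points lie above 0, the DPC value is above the DSC value for each gene, and mt-Atp6 stands apart at 2.79 and 2.23.

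The nuclear copies give the counts beside which these values stand. Gm10925, equal to mt-Atp6 over its length, had 104004, 188586, 124826 and 187157 counts, or 398.50%, 107.43%, 400.03% and 106.42% of the counts of mt-Atp6. For the other 4 mitochondrial genes with a copy over their length at 99.71% to 100% identity, the copy's count was between 97.05% and 99.95% of the gene's in every library (Gm28661 for mt-Co2, Gm28437 for mt-Co3, Gm28438 for mt-Nd3 and Gm10222 for mt-Nd4l). Near-equal counts arise where such reads are counted at both places or divided evenly. Gm10925 by itself differed by 0.89 in DPCs and 0.32 in DSCs between the passages, near the values of mt-Atp8. With the counts of gene and copy summed, mt-Atp6 differed by 1.52 and 0.95. The size of the mt-Atp6 difference thus depended on whether the counts of the copy were added, and the cause of the unequal counts at passage 3 was not tested. Over the 6 genes that shared under 10% of their windows, the median was 0.94 in DPCs (0.81 to 1.5) and 0.23 in DSCs (0.16 to 0.43). Without mt-Atp6 it was 0.85 and 0.23.

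**Figure D4:**
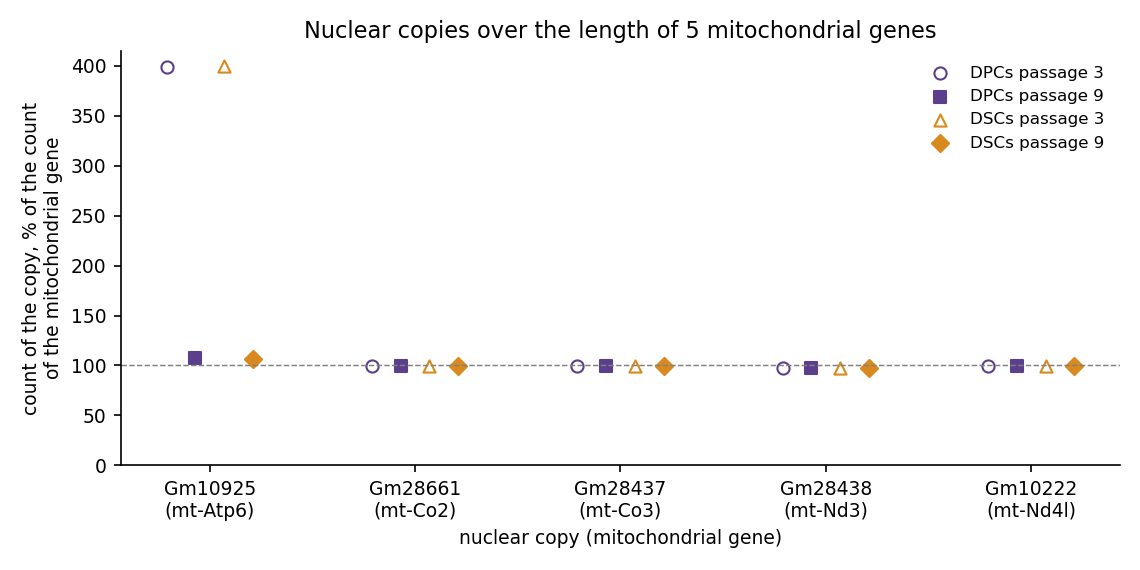
Count of 5 nuclear copies as a percent of the count of their mitochondrial gene, 1 symbol per library (open for passage 3, filled for passage 9). Shown are copies over the gene's length at 99.71% to 100% identity. Copies of lower identity, as Gm13340 of mt-Co1 (97.6%) and Gm13341 of mt-Co2 (95.91%), are not shown. Gm10925 lies at 398.50% and 400.03% of mt-Atp6 at passage 3 and at 107.43% and 106.42% at passage 9. The other 4 copies lie near the dashed line of 100% in all libraries.

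Of the nuclear core subunits of complex I, which carry electrons from NADH through flavin and iron-sulfur clusters, Ndufs1 and Ndufv1 were lower in high-passage DPCs by less than 2-fold. Ndufs1 had 3285, 2457, 2685 and 3341 counts, with -0.38 in DPCs and 0.05 in DSCs. Ndufv1, the flavin-binding subunit, had 1234, 838, 952 and 1155 (-0.52 and 0.01). In DSCs the intervals of both held 0.

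The differences of the accessory subunits of complex I ranged more widely. Ndufb6, a membrane arm subunit, had 1825, 627, 1156 and 1133 counts, with -1.5 in DPCs (-1.64 to -1.37) and -0.29 in DSCs. It shares 31.56% of its windows with other transcripts and overlaps Smim27 on the opposite strand. Ndufa4 had 1946, 770, 1165 and 1285 counts (-1.30 and -0.12). In all, 4 nuclear members of complex I were higher in high-passage DPCs, with Ndufa12 the highest at 0.36 (2163, 2703, 2194 and 2753 counts) and Ndufs7, an iron-sulfur subunit, at 0.24 (1022, 1175, 906 and 1331 counts). Ndufs7 was also higher in DSCs, at 0.29. Ndufb2, another of the 4, was lower by FPKM in high-passage DPCs (13.72 and 7.467).

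Ndufv3, a small subunit of the NADH-binding module (chr17:31520115-31531326), had opposite signs. Its counts of 1752, 1305, 1257 and 2929 gave -0.39 in DPCs (-0.49 to -0.28) and 0.95 in DSCs (0.86 to 1.05). High-passage DSCs were highest by counts, but by FPKM (87.44, 63.8, 56.07 and 74.08) low-passage DPCs were, and the DSC difference was 0.40 on log2 FPKM. Ndufa6 had 1298, 1194, 1037 and 1676 counts, with -0.08 and 0.43, the next largest positive difference in DSCs.

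Ndufa4l2, a hypoxia-inducible paralog of Ndufa4 (chr10:127514967-127517154), had the largest contrast between the cell types of all members with counts in every library. It had 230, 87, 497 and 1932 counts. The difference was -1.35 in DPCs (-1.74 to -1.0), or 0.39 times the low passage, and 1.69 in DSCs (1.55 to 1.84), or 3.23 times. DSCs exceeded DPCs by 1.06 at passage 3 and by 4.10 at passage 9. In FPKM it was 6.625, 2.36, 14.01 and 40.33, so that in high-passage DSCs its level was that of the median nuclear complex I gene, 40.3. None of its windows were shared with another transcript, and 32 bases of it overlap Shmt2 on the opposite strand.

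In complex II, which oxidises succinate and also serves the tricarboxylic acid cycle, 1 catalytic and 1 membrane subunit were at least 2-fold lower in DPCs. Sdha, the flavoprotein, had 7274, 6365, 5771 and 7965 counts, with -0.16 in DPCs (-0.21 to -0.11) and 0.20 in DSCs (0.15 to 0.25), where log2 FPKM gave -0.03. Sdhb, the iron-sulfur subunit, had 3572, 1195, 2949 and 2429, with -1.54 (-1.64 to -1.45) and -0.54 (-0.62 to -0.47). It was the largest negative difference in DPCs among nuclear members with a mean count of at least 100. The membrane anchors were Sdhc, with 4107, 3067, 3577 and 4406 counts (-0.38 and 0.04), and Sdhd, with 3128, 1444, 2172 and 2310 (-1.08 and -0.18). By FPKM rank Sdhb moved from 788 to 2508 among all genes in DPCs and from 1016 to 1555 in DSCs.

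Complex III, which passes electrons from ubiquinol to cytochrome c, was lower in high-passage DPCs for 8 of 8 nuclear genes, between -1.0 and -0.28. Uqcrfs1, the Rieske iron-sulfur protein, had 2291, 1348, 1849 and 2015 counts (-0.73 and -0.14). Uqcrc1, a core protein, had 5921, 3572, 4134 and 4589 (-0.69 and -0.11). In DSCs 7 of 8 were lower, none by more than 0.24, and Uqcr11 was higher by 0.26.

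In complex IV the main nuclear subunits around the catalytic core were also lower in high-passage DPCs. Cox5a had 2608, 1386, 1971 and 2314 counts (-0.87 and -0.03) and Cox5b had 4239, 2284, 3437 and 3831 (-0.86 and -0.11). Several subunits of this complex exist as a ubiquitous form and a form of muscle, testis or another tissue, and the ubiquitous forms made up nearly all counts. Cox6a1 had 6457, 5821, 5830 and 7091 counts (-0.11 and 0.02). Cox6b1 had 5616, 3936, 4547 and 5214 (-0.48 and -0.07). Cox7a2 had 2500, 1311, 1817 and 2022 (-0.89 and -0.11). Cox7b had 3399, 2232, 2287 and 2742 (-0.57 and -0.00). Cox8a had 6174, 4844, 5128 and 6672 (-0.31 and 0.11). The smallest differences in DPCs of these 5 were thus those of Cox6a1 and Cox8a.

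The restricted forms were low or without counts. Cox7b2, Cox8b and Cox8c had 0 counts in all 4 libraries, which at 3 counts allows up to 0.0816, 0.0837, 0.0792 and 0.0659 CPM. Cox7a1, of heart and skeletal muscle, had 12, 11, 3 and 13 counts and was not tested. Cox6b2, of testis, had 14, 19, 30 and 41 counts, and its intervals held 0 in both cell types. Cox6a2, the heart and skeletal muscle form of Cox6a (chr7:128205435-128206387), had 49, 0, 183 and 55 counts. It was at least 15.93-fold lower in high-passage than in low-passage DPCs, taking 3 counts as the floor of each library, and differed by -1.95 (-2.46 to -1.56) in DSCs. The skeletal muscle markers moved in different ways. Their summed CPM over 8 genes was 42.3, 3.32, 51.3 and 27.3, lower at passage 9 in both cell types. Most of it, outside high-passage DPCs, came from Acta1, with 1495, 13, 1837 and 1083 counts (-6.62 and -1.03), lower in both like Cox6a2. The defining markers Ckm and Myh4 were at 0 in all libraries. Myh1 had 0, 0, 6 and 20 counts, and Myh2 had 9, 50, 43 and 59. Mylpf had 25, 29, 29 and 15, Tnnt3 had 26, 27, 29 and 66, and Tnni2 had 0, 0, 2 and 0. The part of these markers in the Cox6a2 difference was not tested. Cox6a2 also overlaps Itgad by 70 bases on the opposite strand, and whether the counting used strand is not given in the sources used here.

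**Figure D5:**
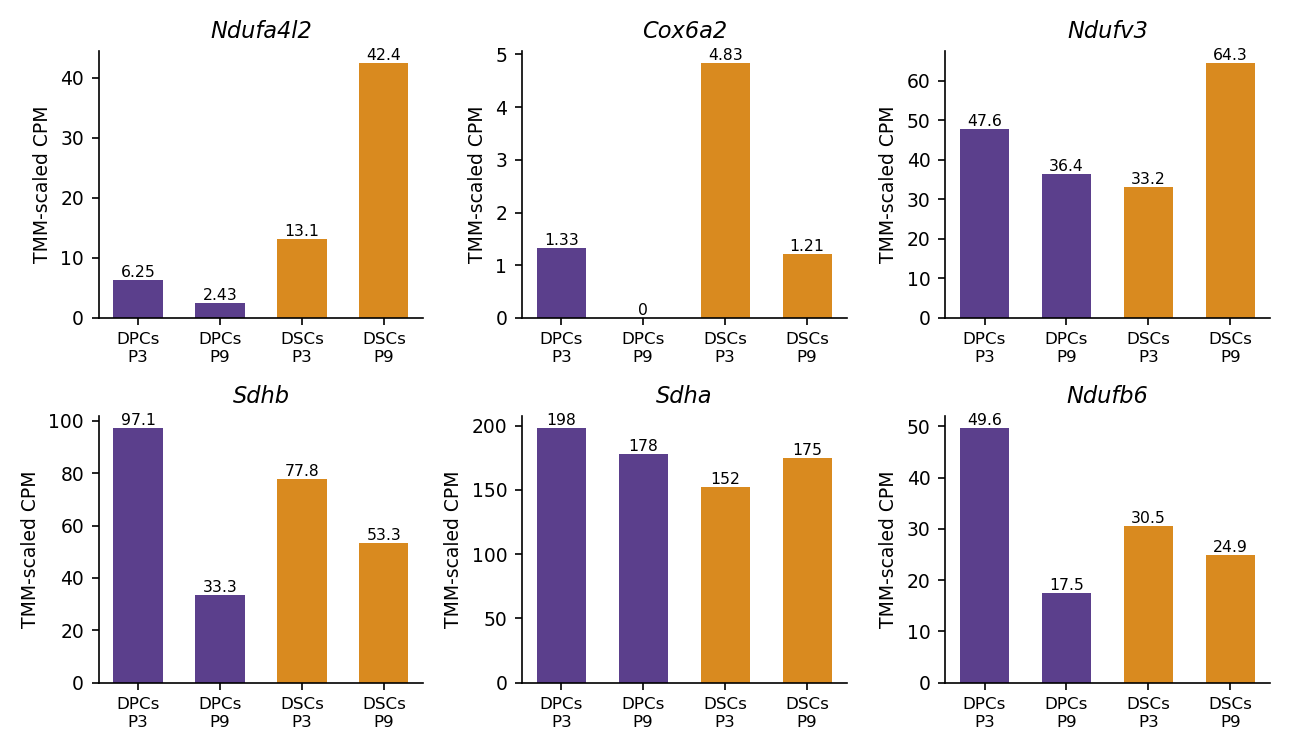
TMM-scaled CPM of 6 nuclear members in the 4 libraries (P3 and P9 are passage 3 and passage 9), with DPCs in violet and DSCs in orange, 1 bar per library and each axis starting at 0. Ndufa4l2 is highest in high-passage DSCs at 42.4, Cox6a2 is at 0 in high-passage DPCs, and Sdhb and Ndufb6 are lowest in high-passage DPCs at 33.3 and 17.5.

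In complex V, 16 of 17 nuclear genes were lower in high-passage DPCs. The catalytic head subunits Atp5a1 (alpha) and Atp5b (beta) had the highest counts. Atp5a1 had 18949, 11639, 15311 and 16060 (-0.67 and -0.20), and Atp5b had 27748, 19241, 23657 and 27111 (-0.49 and -0.07). Atp5o, the stalk subunit that ties the head to the membrane part, had 4147, 1460, 4793 and 3816 counts, with -1.47 in DPCs and -0.59 in DSCs, the largest negative difference of a nuclear member with a mean count of at least 100 in DSCs. Its count is uncertain, since 41.60% of its windows are shared and its annotated exons overlap 3 other entries. Atp5j2, subunit f, had 3125, 1883, 2351 and 2057 (-0.69 and -0.46).

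The 3 genes Atp5g1, Atp5g2 and Atp5g3 encode the same mature c subunit of the rotor ring. Atp5g1 had 3327, 1879, 2856 and 3301 counts (-0.79 and -0.06). Atp5g2 had 4924, 3136, 4214 and 4885 (-0.61 and -0.05). Atp5g3 had 5644, 2727, 4752 and 4453 (-1.01 and -0.36), and was the lowest of them at passage 9 relative to passage 3 in both cell types. The exception in DPCs was Atp5sl, with 363, 423, 365 and 502 counts (0.26 and 0.19), which is not a subunit.

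The last comparison set DSCs against DPCs at each passage. At passage 3, 73 of 78 nuclear members were lower in DSCs (50.2% of all genes) with a median of -0.32, and 13 of 13 mitochondrial members were higher with a median of 0.27. At passage 9, 65 of 78 nuclear members were higher in DSCs (50.9% of all genes) with a median of 0.24, and 13 of 13 mitochondrial members were lower with a median of -0.34. The order of the cell types was thus the opposite at the 2 passages for both kinds of gene. Ndufa4l2 and Cox6a2 were the nuclear members at least 2-fold higher in DSCs at passage 3, beside 7.86% of all genes, and these and Atp5o (1.04) at passage 9, beside 11.0%. No member was at least 2-fold lower in DSCs at either passage, where 5.43% and 9.11% of all genes were. These comparisons share libraries with those between passages and are no further evidence.

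A model across all genes could be fitted with cell type and passage as terms, which leaves 1 residual degree of freedom that comes from how differently the cell types changed. By edgeR's quasi-likelihood test with Benjamini-Hochberg adjustment, 0 of 91 members and 0 of 16734 genes passed an adjusted p of 0.05 for passage, and the smallest adjusted p of a member was 0.188 (mt-Atp6, 2.51 on the log2 scale, higher in 2 of 2 cell types). At an unadjusted p under 0.05 there were 1 higher (mt-Atp6) and 5 lower members (Atp5o, Sdhb, Cox6a2, Atp5g3 and Atp5j2), 6 of 91 beside 16.9% of all genes. By DESeq2's Wald test 2 members passed, mt-Atp6 (adjusted p = 2.67e-13) and Cox6a2 (adjusted p = 0.0258, -3.80 on the log2 scale), beside 6.06% of the 15760 genes with an adjusted p. The call of mt-Atp6 rests on counts split unequally with its copy. For cell type, edgeR called no member (2 at an unadjusted p under 0.05, beside 8.25% of all genes) and DESeq2 called Ndufa4l2 (adjusted p = 0.00423, higher in DSCs by 2.58), beside 3.21% of the 15436 genes with an adjusted p. These calls rest on 4 libraries without replicates.

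Other genes of mitochondrial respiration, biogenesis and structure were examined as 12 lists. Assembly factors of complex I were lower in high-passage DPCs for 12 of 16 tested (median -0.42) and in high-passage DSCs for 9 of 16 (-0.09). Ndufaf4 had 300, 147, 302 and 160 counts (-0.98 and -1.17). For the factors of complex II the median was 0.05 in DPCs and 0.32 in DSCs over 4 genes, for complex III -0.19 and 0.16 over 6, for complex IV -0.31 and 0.02 over 21, and for complex V -0.43 and 0.01 over 4. Coa7, a factor of complex IV, had 281, 132, 284 and 56 counts (-1.04 and -2.56). Slirp and Lrpprc, which bind and stabilise mitochondrial mRNAs, belong to the list of mitochondrial RNA processing, in which 12 of 19 genes were lower in DPCs (median -0.18) and 11 of 19 in DSCs (-0.10). Slirp had 1130, 465, 616 and 927 counts (-1.24 and 0.32), and Lrpprc had 2586, 1386, 2497 and 2036 (-0.86 and -0.56). Slirp was lower in high-passage DPCs and higher in high-passage DSCs, and that difference between the cell types was not tested.

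Genes for mitochondrial DNA maintenance and transcription had medians near 0. These were 0.02 in DPCs (8 of 18 lower, beside 48.5% of all genes) and -0.04 in DSCs (11 of 18 lower, beside 49.7%). Tfb1m, a methyltransferase of mitochondrial ribosomal RNA, had 167, 97, 233 and 193 counts (-0.74 and -0.53), and Polrmt, the mitochondrial RNA polymerase, had 942, 1258, 783 and 1170 (0.45 and 0.31). None of the 18 reached 2-fold in either cell type. The nuclear regulators of mitochondrial biogenesis had medians of -0.04 and -0.17 over 11 genes. Ppargc1a, which encodes the coactivator PGC-1alpha, had 4, 64, 0 and 23 counts, 11.47 times higher in high-passage DPCs (interval 2.61 to 5.96 on the log2 scale) and at least 6.38-fold higher in high-passage DSCs. Its paralog Ppargc1b had 87, 37, 82 and 38 (-1.16 and -1.32), and Myc had 1726, 781, 1940 and 1195 (-1.11 and -0.96).

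Other mitochondrial lists were lower in DPCs as well. The median was -0.44 in DPCs and 0.00 in DSCs for 15 subunits and carriers that the symbols did not take in, -0.37 and -0.00 for 13 genes of the tricarboxylic acid cycle, -0.55 and -0.27 for 12 genes of the outer membrane and protein import, and -0.51 and -0.16 for 12 genes of the cristae and inner membrane. In these, 11 of 15, 9 of 13, 11 of 12 and 10 of 12 genes were lower in high-passage DPCs, beside 48.5% of all genes. Atpif1, the inhibitor of ATP hydrolysis by complex V, had 3168, 1244, 3530 and 2441 counts (-1.31 and -0.80). Hspd1, the chaperonin of the matrix, had 12727, 6869, 10826 and 8523 (-0.85 and -0.61). Suclg2, of the tricarboxylic acid cycle, went the other way with 1009, 1335, 913 and 2154 (0.44 and 0.97).

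Since the nuclear members were lower together in high-passage DPCs, their promoters were searched for motifs of factors known to act on nuclear genes for mitochondria. RefSeq entries (GRCm38.p6) of 300 bases, from 250 before to 50 after the transcription start, were found for 69 of 82 nuclear members. On both strands, the NRF1 core CGCATGCG was in 9 of 69 (13%, beside 2.1% of 27025 genes), the ETS core CCGGAAGT in 5 (7.2%, beside 4.3%) and the YY1 core GCCATNTT in 18 (26.1%, beside 7.0%). In the 250 bases before the start alone, these were 7 (10.1%, beside 1.7%), 3 (4.3%, beside 3.2%) and 7 (10.1%, beside 4.5%). The promoters of 4 members with the NRF1 core in the last 100 bases before the start, and of 2 of the largest negative differences, Sdhb and Ndufb6, follow. They show these 100 bases 5′ to 3′, with a motif in capitals.
Ndufa11, chr17:56717662-56717761, plus strand: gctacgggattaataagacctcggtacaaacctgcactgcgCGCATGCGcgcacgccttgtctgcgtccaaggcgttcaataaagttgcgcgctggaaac
Atp5g2, chr15:102671048-102671147, minus strand: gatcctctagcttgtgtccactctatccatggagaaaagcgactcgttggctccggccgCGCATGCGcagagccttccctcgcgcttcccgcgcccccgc
Atp5k, chr5:108434400-108434499, minus strand: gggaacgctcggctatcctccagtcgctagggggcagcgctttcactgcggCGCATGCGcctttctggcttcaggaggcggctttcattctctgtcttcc
Ndufa8, chr2:36049339-36049438, minus strand: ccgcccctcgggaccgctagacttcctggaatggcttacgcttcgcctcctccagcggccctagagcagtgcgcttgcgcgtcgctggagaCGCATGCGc
Sdhb, chr4:140961171-140961270, plus strand: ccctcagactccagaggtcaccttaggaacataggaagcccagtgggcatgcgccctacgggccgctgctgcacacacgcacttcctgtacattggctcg
Ndufb6, chr4:40279422-40279521, minus strand: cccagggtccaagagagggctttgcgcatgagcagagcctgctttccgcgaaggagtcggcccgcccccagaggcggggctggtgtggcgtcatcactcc
The 4 with the motif differed between passages by -0.45 (Ndufa11), -0.61 (Atp5g2), -1.06 (Atp5k) and -0.43 (Ndufa8) in DPCs, and none of the 3 motifs lay in the entries of Sdhb (-1.54) or Ndufb6 (-1.5). The median difference in DPCs was -0.61 for the 9 members with the NRF1 core, -0.37 for the 5 with the ETS core, -0.60 for the 18 with the YY1 core and -0.57 for all 66 tested members with an entry. A motif is a match of letters and not a bound site.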

How the data were processed

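Total RNA of 1 library per group was sequenced. Poly-T selection and paired-end reads are described in the methods, and the labels name a different kit. Deposited were raw counts of all libraries in one table, and FPKM in a table for each, as the authors made them. The submitters' processing notes name Bowtie 0.12.2 and the builds mm8 and mm9, with no role, although the positions in the files are those of GRCm38. The program that made the counts and FPKM, and its use of strand and of reads with several matches, are not given in the sources used here.

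Groups were taken from the labels. Counts were scaled by TMM (edgeR 4.0.16, limma 3.58.1, R 4.3.3), genes with a mean count of at least 10 were kept (16734), and each fold change is a difference of log2 CPM (prior count 2). A member is called at 2-fold, and at 4-fold as in the study. Intervals are exact 95% Clopper-Pearson intervals of a count ratio or a share and cover counting error only. The additive model was edgeR's quasi-likelihood test, with DESeq2 1.42.0 as the alternative, and was tested on simulated data first. FPKM serve for levels between genes. Nuclear copies were found with blastn 2.17.0 in GENCODE M21 transcripts. Named were the mitochondrial genes, core subunits, subunits with isoforms, members past 2-fold in both cell types, the 3 largest differences each way per cell type and up to 4 genes per list. A core subunit is not reported here. Ndufa4, Uqcr11 and the promoter examples were named after their values were seen. The members, lists and motifs were chosen with earlier results of these data known. Alternatives covered scaling, prior count, filter, unit, halved counts and genes with copies or overlaps.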

Additional observations from a re-analysis of the deposited data

Results flagged for a closer look

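Named members were flagged where the counting intervals of both cell types excluded 0 with opposite signs, so that the difference was negative in DPCs and positive in DSCs. In each case 1 library stood on either side of the comparison and the difference between the cell types was not tested. The difference in DPCs minus that in DSCs was -3.04 for Ndufa4l2, -1.34 for Ndufv3, -0.43 for Cox8a and -0.36 for Sdha. The last 2 are each under 1.5-fold. By deposited FPKM, Sdha in DSCs was slightly lower at passage 9 (54.52 and 53.29), so that its opposite sign was not kept, and Ndufv3 in DSCs differed by 0.40 in place of 0.95.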

How the results depend on the processing

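No paired analysis was possible because each group was 1 library, other than the model with cell type and passage as terms, in which each cell type gives 1 pair. No replicate could be left out. The medians kept their sign under every alternative. Of 108 other log2 values, those of single named members and medians of complexes, 11 turned their sign under at least 1 alternative. All 11 were of single members, with a size of at most 0.22 in the report's setting, among them Sdha in DSCs on log2 FPKM. Medians are judged against counting error alone, which is small here, so that small shifts count as moved. With total counts in place of TMM, the median of nuclear members for DSCs over DPCs was -0.41 at passage 3 and 0.14 at passage 9, and that of mitochondrial members was 0.85 for DPCs and 0.20 for DSCs with passage, 0.18 at passage 3 and -0.44 at passage 9. With DESeq2 size factors or upper-quartile scaling, the mitochondrial median at passage 3 was 0.25 or 0.26, and with the upper quartile -0.35 at passage 9. With TMM computed without mitochondrial genes and copies it was 0.85 with passage in DPCs and -0.33 between cell types at passage 9. Without a filter these 2 were 0.84 and -0.32, and with a mean count of at least 100 they were 0.90 and -0.37. On log2 FPKM with a pseudocount of 0.1 or 1, the mitochondrial median was 0.20 for DSCs with passage, 0.18 at passage 3 and -0.45 at passage 9, and the nuclear median at passage 9 was 0.13 or 0.12.

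Alternatives chosen after seeing the data gave a mitochondrial median of 0.94 for DPCs with passage and -0.45 at passage 9 over genes with few shared windows, and 0.85 and -0.31 without mt-Atp6. In DPCs, a 1.5-fold threshold gave 11 mitochondrial members higher and 38 nuclear members lower, and a 4-fold threshold 1 and 1. In DSCs, 1.5-fold gave 2 nuclear members higher and 2 lower, and 4-fold 0 and 0. The count higher was 2 without a filter, and the count lower was 0 with a mean count of at least 100. No share of all genes past 1.5-fold was computed, so that the counts of members at 1.5-fold cannot be set against a background. DESeq2 called 2 members for passage. The mitochondrial share of counts, in the order of the report, was 5.392%, 9.784%, 6.189% and 7.065% with the counts of nuclear copies added, 8.729%, 17.204%, 10.408% and 12.436% of summed FPKM, 2.779%, 5.653%, 3.197% and 3.897% without mt-Co1, and 4.053%, 7.260%, 4.683% and 5.148% without mt-Atp6. The order of the libraries was the same in each. Depth limits Cox6a2, Cox6b2 and Cox7a1, with under 200 counts in every library, and Cox7b2, Cox8b and Cox8c, with 0.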

Other observations

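The other transcripts of the mitochondrial genome did not all share the direction of the subunit genes in DPCs. They were chosen for description after their values were seen. The ribosomal RNA mt-Rnr1 had 17137, 8164, 19644 and 17208 counts, a log2 difference between passages of -1.03 in DPCs and -0.46 in DSCs, and mt-Rnr2 had 25715, 22135, 29230 and 34311 (-0.18 and -0.03). Of 8 tested transfer RNA genes on the minus strand, 5 were lower in high-passage DPCs, among them mt-Tp with 1037, 437, 1035 and 1167 counts (-1.21 and -0.09) and the neighbours mt-Ta (-0.85), mt-Tn (-0.94) and mt-Tc (-0.63). mt-Te, on the same strand, had 1391, 2901, 1578 and 3150 (1.10 and 0.73). Of 11 tested on the plus strand, 9 were higher in high-passage DPCs, with mt-Tm, directly before mt-Nd2, the highest at 46, 413, 55 and 121 counts (3.15 and 0.85) and mt-Tl1, directly before mt-Nd1, at 871, 2463, 1022 and 1955 (1.53 and 0.67). Ribosomal and transfer RNAs are largely removed by poly-T selection and the length of the fragments kept, so that their counts do not measure their level in the cell. mt-Ts2 had 170, 111, 1 and 147 counts.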
